A study of Mus musculus with 9 samples.

Results

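The 37 genes described here are those of the unfolded protein response and of the amino acid stress response in mouse bone marrow-derived macrophages. They were chosen by symbol, and all 37 were present among the 13593 genes of the count table. By role they comprise 13 endoplasmic reticulum (ER) chaperones and folding factors, 3 genes of ER-associated degradation (ERAD), 6 stress sensors and transcription factors, and 15 targets of the transcription factor ATF4. The macrophages were grown from marrow of wild-type C57BL/6 mice aged 6 weeks, over 7 days in medium with 15% L929 cell supernatant, which supplies the macrophage growth factor. Treated cells received the chemokine CCL26 or the chemokine CX3CL1, and control cells received bovine serum albumin (BSA), each at 4 nM for 4 h. Each group had 3 libraries, and the comparisons ask how macrophages respond to each chemokine and whether the responses differ. Whether the 3 replicates of a group are separate animals, separate cultures or repeats of 1 culture is not in the labels. A p-value here therefore reflects only how far these libraries scatter, and that scatter may be technical.

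The unfolded protein response adjusts the folding capacity of the ER. Its 3 sensors sit in the ER membrane: IRE1 (gene Ern1) splices the Xbp1 message, ATF6 is cut to release a transcription factor, and PERK (gene Eif2ak3) phosphorylates the translation factor eIF2, which raises translation of ATF4. ATF6 and XBP1 act on the genes of chaperones and of degradation. ATF4 acts on genes of amino acid synthesis, amino acid transport and tRNA charging, and it is also reached by kinases that sense amino acid shortage. In macrophages the same pathway supports secretion and is engaged by inflammatory stimuli.

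Sequences near the transcription starts are shown because the arms of the response are known to act through different short elements. In RefSeq windows on GRCm38.p6, from 250 bases before to 50 bases after each start, 32 of the 37 genes had an entry, with 33 windows in all. Both strands were searched. The ER stress element (ERSE) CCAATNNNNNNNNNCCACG, known as the site of NF-Y with ATF6 or XBP1, was in 7 of the 11 chaperone windows and in 39 of 32851 windows of all genes (0.119%). None of the 14 windows of ATF4 targets, the 3 of ERAD genes or the 5 of sensors and factors held it. Capitals mark its fixed letters below, with 10 bases on each side.
Hspa5 ERSE, chr2:34772015-34772053, plus strand: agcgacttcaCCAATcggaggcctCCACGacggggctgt
Hsp90b1 ERSE, chr10:86705628-86705666, minus strand: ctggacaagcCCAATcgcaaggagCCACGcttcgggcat
Hsp90b1 ERSE, chr10:86705523-86705561, plus strand: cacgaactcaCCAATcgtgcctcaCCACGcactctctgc
Calr ERSE, chr8:84847065-84847103, plus strand: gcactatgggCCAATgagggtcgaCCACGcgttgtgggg
Canx ERSE, chr11:50325790-50325828, minus strand: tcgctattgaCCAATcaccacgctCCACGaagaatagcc
Pdia6 ERSE, chr12:17266481-17266519, plus strand: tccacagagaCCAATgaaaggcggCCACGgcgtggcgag
Dnajc3 ERSE, chr14:118937817-118937855, plus strand: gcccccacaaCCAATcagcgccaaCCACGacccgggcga
Creld2 ERSE, chr15:88819510-88819548, minus strand: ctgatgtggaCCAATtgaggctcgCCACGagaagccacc
The Hspa5 match lay from 65 to 47 bases before the start, and Hsp90b1 held a pair of matches, 1 on each strand. Dnajb9, Pdia3, Pdia4 and Sdf2l1 had windows with no match to these letters. A match is a description of the sequence and not a measured site.

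The composite element of ATF4 with its C/EBP partners (CARE), TGATGNAA, was in 3 of 10 windows of amino acid targets and in 2 of 4 windows of regulators. It was in 0 of 11 chaperone windows and in 1304 of 32851 windows of all genes (3.97%). The same letters stood in the window of Herpud1, which also held the shorter ER stress element (ERSE-II) ATTGGNCCACG, present in 12 windows of all genes (0.0365%). The UPRE core letters TGACGTGG were in none of the 33 windows, against 0.676% of all windows. In the Herpud1 window the matches of both elements did not overlap. The matched letters are in capitals.
Asns CARE, chr6:7693215-7693242, minus strand: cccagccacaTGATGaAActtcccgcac
Trib3 CARE, chr2:152344029-152344056, plus strand: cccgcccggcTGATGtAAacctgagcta
Chac1 CARE, chr2:119351039-119351066, minus strand: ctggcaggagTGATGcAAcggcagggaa
Gars CARE, chr6:55037961-55037988, minus strand: gcccggtgcaTGATGaAAtagcgcagcc
Herpud1 CARE, chr8:94386307-94386334, minus strand: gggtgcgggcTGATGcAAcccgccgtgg
Herpud1 ERSE-II, chr8:94386367-94386397, plus strand: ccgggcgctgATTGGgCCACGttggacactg
The match of Trib3 lay after the start, and the others shown lay before it.

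Total counts ran from 16923982 to 23198324 per library, and the 37 genes held from 1.43% to 1.55% of them. CX3CL1 replicate 1 stood apart: it lacked a count for 1193 genes, where the remaining libraries lacked one for 80 to 170, and its counts differed from those of its replicates by a chi-square of 284 and 336 per degree of freedom, against 3.91 to 8.65 for other pairs. Counts and medians over the genes are therefore given with all 9 libraries and with the 8 that remain without this library. Fold changes, SE and adjusted p of single genes are from the 8 libraries unless all 9 are named. All 10 macrophage markers were in the table, and their summed level was from 24753 to 25336 CPM (read counts scaled to library size) with CCL26, from 28801 to 43018 CPM with CX3CL1 and from 30648 to 31171 CPM with BSA. With 8 libraries, 7 of the 10 were lower with CCL26 than with BSA, with the largest falls in Lyz2 (log2 fold change -0.35) and Mrc1 (-0.29). Csf1r (0.04), Mertk (-0.05) and Aif1 (-0.09) did not pass. Lyz2 made up most of the summed level, with a mean of 18341.5 CPM with CCL26 and 23488.7 CPM with BSA. The part of these markers in the results below was not tested. Markers of granulocytes summed to 78.8 to 83.9 CPM with CCL26, 70.1 to 180.4 CPM with CX3CL1 and 64.7 to 70.3 CPM with BSA, and 2 of 8 were higher with CCL26. Those of B and plasma cells summed to 23.7 to 28.1 CPM with CCL26, 29.2 to 75.4 CPM with CX3CL1 and 33.6 to 35.4 CPM with BSA, with 1 of 3 lower with CCL26 and Ms4a1, Jchain and Ighm not among the genes in the table. Stromal, T and NK and dendritic cell markers summed to at most 10.2 CPM in a library, and no erythroid or mast cell marker was in the table. In bulk RNA, fewer cells of a type and less RNA per cell cannot be told apart.

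CX3CL1 replicate 1 also stood apart for these genes. It lay outside the range of the other 8 libraries for 31 of the 37, above it for 20 and below it for 11, which is 83.8% against 78.9% of all tested genes. Relative to the mean of CX3CL1 replicates 2 and 3, on the log2 scale, Ddit3 was 2.03 above, Creld2 1.43, Manf 1.30, Sdf2l1 1.09 and Psph 1.02. On the same scale Eif2ak3 stood at -1.45, Ern1 at -1.35, Sel1l at -1.34, Atf6 at -1.16 and Hyou1 at -0.80. Across the 37 genes this difference went with the log2 of exon length at a Spearman coefficient of -0.62, and across 12905 tested genes at -0.49, so short transcripts tended to be high and long ones low in this library. These points share a library and are given as a description. The median coefficient of variation of the 37 genes between replicates was 4.11% with CCL26, 22.7% with CX3CL1 and 2.41% with BSA.

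**Figure D1:**
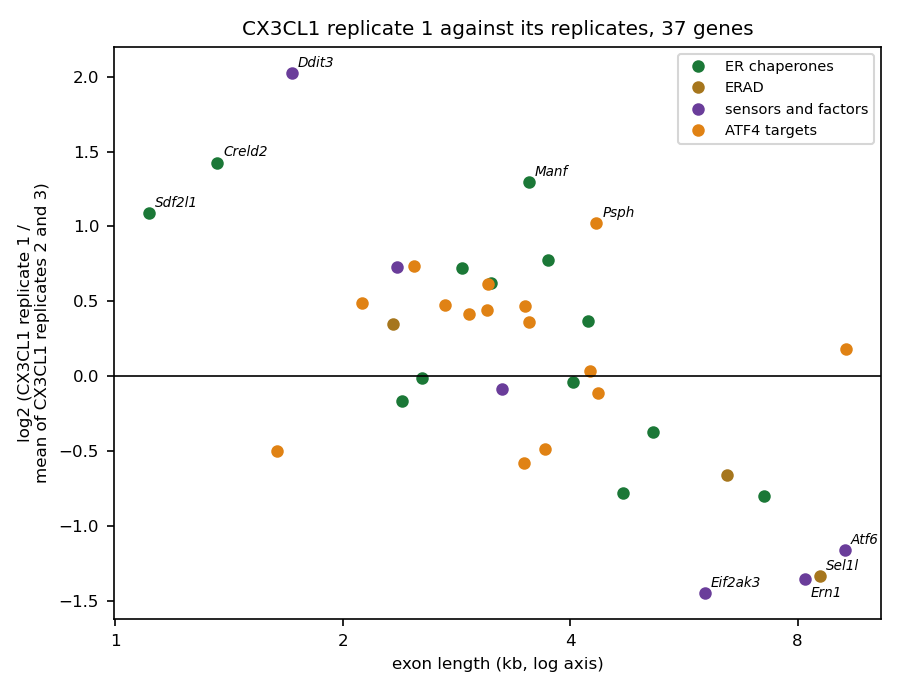
Log2 ratio of the CPM in CX3CL1 replicate 1 to the mean CPM of CX3CL1 replicates 2 and 3 (vertical axis) against exon length in kb (horizontal log axis), 1 point per gene, coloured by role. Ddit3 is the highest at 2.03 and Eif2ak3 the lowest at -1.45, and the long sensor genes Ern1 and Atf6 lie below 0.

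Before any comparison, levels per exon length show how unevenly the pathway was expressed. In CPM per kb of exon, the chaperone Calr was at 389 ± 14.1 with CCL26, 576 ± 177 with CX3CL1 and 498 ± 1.82 with BSA (SD, n = 3 each), and Hspa5 was at 345 ± 11.9 with CCL26, 415 ± 64.2 with CX3CL1 and 446 ± 12.1 with BSA. These CX3CL1 means include replicate 1. In CPM, CX3CL1 replicates 2 and 3 averaged 1363 for Calr and 1599 for Hspa5, below the BSA means of 1433 and 1886. With BSA, Pdia3 followed at 367 ± 5.69, Atf4 at 322 ± 4.15 and Slc3a2 at 283 ± 5.15 CPM per kb. The sensors lay far lower than these: Eif2ak3 was at 7.2 ± 0.11, Ern1 at 11.2 ± 0.516 and Atf6 at 27.2 ± 0.859 CPM per kb with BSA. Not all chaperones were high, and Manf (20.8 ± 0.863) and Creld2 (24.5 ± 0.67) lay below Atf6 with BSA. Chac1 (8.15 ± 0.645) and Psph (9.89 ± 0.0843) were the lowest of the ATF4 targets on this scale.

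Most ER chaperones were lower with CCL26 than with BSA, while some ATF4 targets were higher. Without CX3CL1 replicate 1, 8 of 13 chaperones fell and none rose, and of 15 ATF4 targets 5 rose and 2 fell, where 9.26% of all tested genes fell and 9.74% rose. The largest falls among the chaperones were those of Dnajb9, a co-chaperone (log2 fold change -0.54), Hspa5, the central ER chaperone BiP (-0.37), and Calr, the lectin chaperone calreticulin (-0.35). Ern1, the IRE1 sensor, rose by 0.49, and Trib3, a pseudokinase that feeds back on the ATF4 pathway, rose by 0.37. These calls are from edgeR's quasi-likelihood test with Benjamini-Hochberg adjustment over all tested genes and a threshold of 0.05.

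With all 9 libraries in the fit, none of these changes passed. In CCL26 against BSA, 0 of the 37 genes passed edgeR's test (0.434% of 12915 tested genes did). In the same test 5 of the 37 had an unadjusted p under 0.05, against 792 of the 12915. DESeq2 called 1 of the 37, Dnajb9, lower, and limma-voom called 0. The smallest adjusted p in edgeR was that of Dnajb9 at -0.54 (SE 0.104, adjusted p = 0.089), followed among the genes named above by Hspa5 at -0.37 (SE 0.122, adjusted p = 0.513). The log2 fold change of Hspa5 was -0.37 in the 8-library fit too, where its SE was 0.0298. A fit on the 6 CCL26 and BSA libraries alone, which does not contain CX3CL1 replicate 1, called 15 of the 37 lower and 6 higher. The share of all tested genes called in that fit is not given here, so these counts have no background beside them. The SE in the fit of all 9 libraries ran from 0.0924 to 0.482 over the 37 genes, against 0.0298 to 0.134 with 8. No log2 fold change of CCL26 over BSA had another sign. Both fits take this fold change from the same 6 libraries, so its value and sign could hardly differ. Ern1 had 0.49 (SE 0.299, adjusted p = 1) and Trib3 0.37 (SE 0.154, adjusted p = 0.771) with all 9. The medians with all 9 were -0.20 over the chaperones, 0.07 over the ATF4 targets and 0.0044 over all tested genes.

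In the 8-library fit all 37 genes passed the filter on low counts, and 14 were lower and 7 higher with CCL26 than with BSA. Over all 13245 tested genes, 9.26% were lower and 9.74% higher. The remaining 16 of the 37 did not pass. The CCL26 and BSA libraries did not overlap for 17 of the 37 genes with CCL26 below (16.5% of all 12915 genes tested with 9 libraries) and for 9 with CCL26 above (16.6%).

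**Figure D2:**
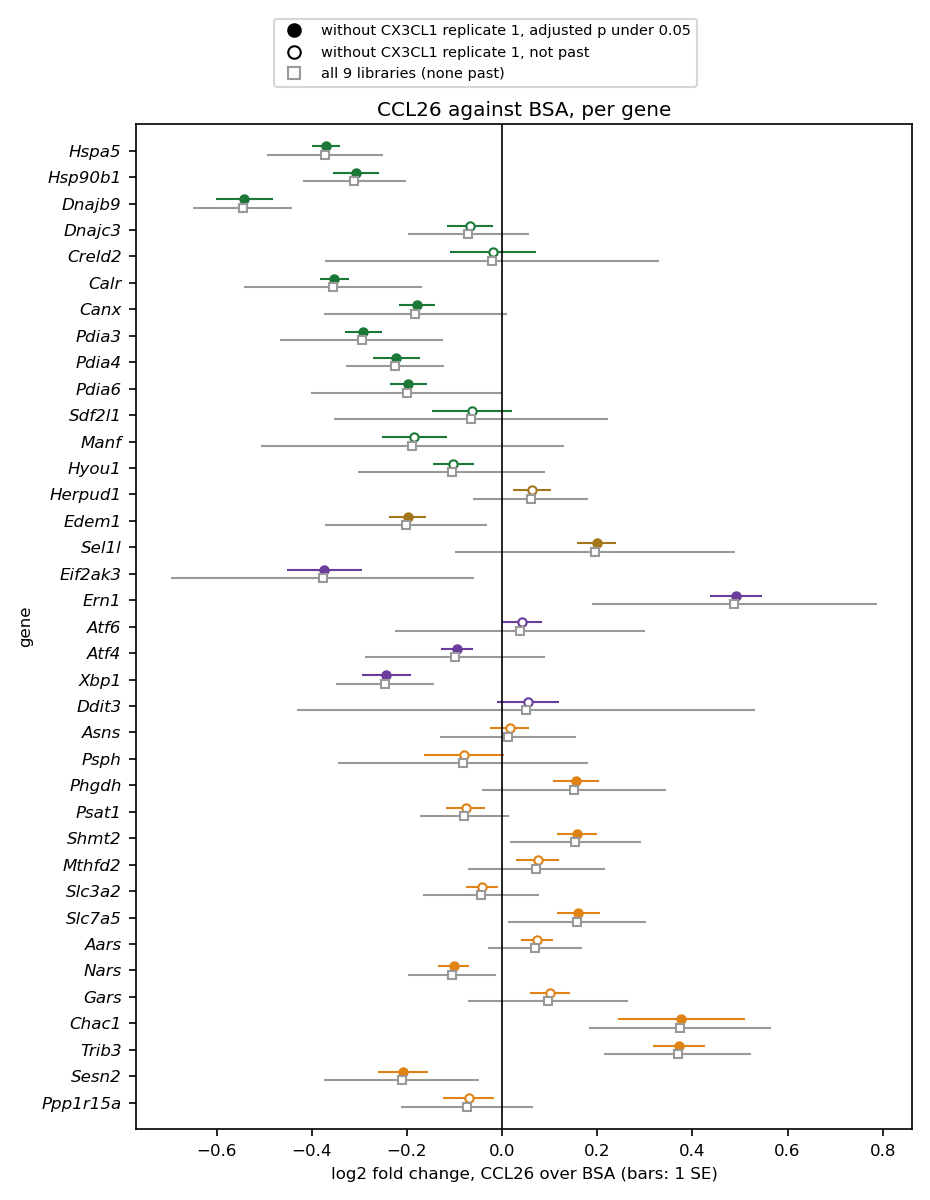
Log2 fold change of CCL26 over BSA (horizontal axis) for each of the 37 genes (vertical axis, ordered by role, green for chaperones, brown for ERAD, purple for sensors and factors, orange for ATF4 targets), with bars of 1 SE. Circles are from the 8 libraries without CX3CL1 replicate 1, filled where the adjusted p is under 0.05. Grey squares are from all 9 libraries. All 13 chaperones lie below 0 in both fits, which share their CCL26 and BSA libraries. The grey bars are wider than the coloured ones.

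Among the chaperones, Hspa5 (ENSMUSG00000026864, chr2:34771970-34777547 in GENCODE M21 on GRCm38) was at 1478, 1493 and 1399.5 CPM with CCL26, 2069, 1593 and 1606 CPM with CX3CL1 and 1945, 1862 and 1852 CPM with BSA, for replicates 1 to 3 of each group. All 3 CCL26 libraries lay below all the others, and CX3CL1 replicate 1 lay above them all. The log2 fold change of CCL26 over BSA was -0.37 (SE 0.0298, adjusted p = 1.01e-09), and the mean CPM changed by -22.8%. Dnajb9 (ERdj4, ENSMUSG00000014905, chr12:44205559-44210326), a co-chaperone of BiP and a known XBP1 target, was at 75.2, 82.4 and 78.8 CPM with CCL26, 92.7, 98.5 and 88.3 CPM with CX3CL1 and 116, 113 and 115 CPM with BSA. Its groups did not overlap in any pair, with BSA highest and CCL26 lowest, and its change of -0.54 (SE 0.0602, adjusted p = 2.64e-07) was the largest fall of the 37. Hsp90b1 was at 708, 742 and 602 CPM with CCL26, 800.4, 842 and 800.2 CPM with CX3CL1 and 828, 857 and 860.2 CPM with BSA; it encodes GRP94, the ER form of HSP90, and gave -0.31 (SE 0.049, adjusted p = 5.14e-05). CCL26 replicate 3 was the lowest library for Hsp90b1, and no CCL26 library reached the BSA range.

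The lectin chaperones calreticulin and calnexin hold newly made glycoproteins until they fold. Calr (ENSMUSG00000003814, chr8:84841850-84846934) was at 1157, 1126 and 1077 CPM with CCL26, 2248, 1373 and 1354 CPM with CX3CL1 and 1427, 1437 and 1435 CPM with BSA, with a change of -0.35 (SE 0.03, adjusted p = 2.83e-09) in CCL26 against BSA. The CCL26 libraries lay below every other library for Calr, and CX3CL1 replicate 1 lay far above them all. Canx was at 1042, 1074 and 942 CPM with CCL26, 673, 1166 and 1147 CPM with CX3CL1 and 1170.2, 1171 and 1128 CPM with BSA, and its change was -0.18 (SE 0.0372, adjusted p = 0.00103). For Canx the same CX3CL1 library was the lowest of all 9, so the lectin chaperones moved apart in it.

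The protein disulfide isomerases form and shuffle disulfide bonds in the ER. Pdia3 was at 987, 969.9 and 857 CPM with CCL26, 1712, 1096 and 1129.7 CPM with CX3CL1 and 1138, 1171 and 1143 CPM with BSA, giving -0.29 (SE 0.039, adjusted p = 4.64e-06) for this partner of the lectin chaperones. Pdia4 was at 139.6, 133 and 132 CPM with CCL26, 136, 148 and 155 CPM with CX3CL1 and 153, 158 and 162 CPM with BSA, giving -0.22 (SE 0.0497, adjusted p = 0.00207). Pdia6 was at 415, 416 and 441 CPM with CCL26, 817, 480.0 and 473 CPM with CX3CL1 and 499, 469 and 492 CPM with BSA, giving -0.20 (SE 0.0385, adjusted p = 0.000536). For each of these isomerases all CCL26 libraries lay below all BSA libraries. The other 5 chaperones did not pass the test in CCL26 against BSA: Manf, a secreted ER stress protein, had -0.18 (adjusted p = 0.0611), Hyou1, an ER HSP70 relative that exchanges nucleotide on BiP, had -0.10 (0.111), and Dnajc3, Sdf2l1 and Creld2 had -0.07, -0.06 and -0.02. All 13 log2 fold changes were negative, and their median was -0.20, against 0.0082 over all tested genes. All 13 stayed negative with DESeq2 size factors and with upper quartile scaling. Both scalings lowered the median over all tested genes, to 0.0031 and -0.021, so they could hardly have turned a negative value positive. Of the 7 chaperones with the ER stress element shown above, 5 fell, and of the 4 with a window and no match, Dnajb9, Pdia3 and Pdia4 fell.

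Abundant genes as a whole were lower with CCL26, and the chaperones are abundant. Of the 90 tested genes that averaged over 1000 CPM, 72.2% were lower and 2.22% higher, with a median log2 fold change of -0.18. The 4 chaperones at this level, Hspa5, Calr, Canx and Pdia3, had a median of -0.32. Between 100 and 1000 CPM, 29.8% of 2222 genes were lower and 14.5% higher with a median of -0.06, while the 5 chaperones there had a median of -0.20 and the 13 ATF4 targets one of 0.07. Between 10 and 100 CPM, the median was 0.03 over 5793 genes, -0.12 over 4 chaperones and 0.15 over 2 ATF4 targets. The chaperone medians lay below that of all genes, and the ATF4 target medians above it, at each level where they had members. The part of expression level in the chaperone result was not tested.

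**Figure D3:**
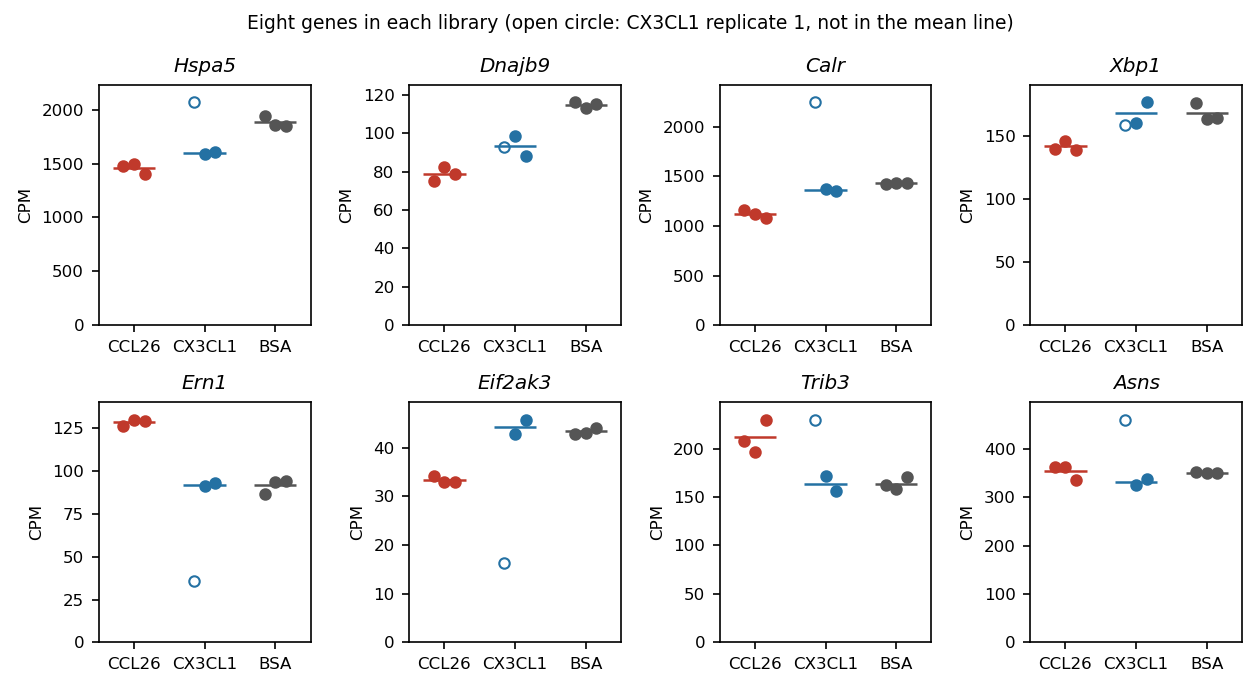
CPM in each library (vertical axis, from 0) by group (horizontal axis) for 8 of the genes; points are libraries, lines are group means without CX3CL1 replicate 1, and the open circle is that library. Hspa5, Dnajb9, Calr, Xbp1 and Eif2ak3 are lower with CCL26 than with BSA, Ern1 and Trib3 are higher, and Asns overlaps.

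The ERAD genes did not move together. Edem1, which passes misfolded glycoproteins on to degradation, was at 415, 385 and 413 CPM with CCL26, 287, 449 and 459 CPM with CX3CL1 and 470.3, 460.0 and 464 CPM with BSA, and fell by 0.20 on the log2 scale (SE 0.0384, adjusted p = 0.00047). Sel1l, the scaffold of the HRD1 ubiquitin ligase, was at 411, 401 and 385 CPM with CCL26, 139.7, 349.6 and 356 CPM with CX3CL1 and 361, 349.6 and 335 CPM with BSA, and rose by 0.20 (SE 0.0405, adjusted p = 0.000842). The CCL26 libraries of Sel1l lay above every other library, and those of Edem1 below every BSA library and below CX3CL1 replicates 2 and 3. Herpud1, an ER membrane protein of the same ligase complex, had 0.06 (adjusted p = 0.307).

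Among the sensors, Ern1 and Eif2ak3 moved in opposite directions. Ern1 (ENSMUSG00000020715, chr11:106394650-106487852) was at 126, 130.0 and 129 CPM with CCL26, 36, 91.3 and 92.8 CPM with CX3CL1 and 86.8, 93.7 and 94.4 CPM with BSA. All CCL26 libraries were above all others, and the rise over BSA was 0.49 (SE 0.0555, adjusted p = 3.39e-07), the largest of the 37. Eif2ak3 (ENSMUSG00000031668, chr6:70844515-70905245), the PERK kinase, was at 34.2, 33 and 33 CPM with CCL26, 16.2, 42.8 and 45.8 CPM with CX3CL1 and 42.8, 43.1 and 44.1 CPM with BSA, and its log2 fold change was -0.37 (SE 0.0792, adjusted p = 0.00122). The CCL26 libraries lay below the BSA libraries, and CX3CL1 replicate 1 lay below them all. Atf6 had 0.04 (adjusted p = 0.565).

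The transcription factors downstream of the sensors differed as well. Xbp1 was at 140.2, 146 and 139 CPM with CCL26, 159, 160.2 and 177 CPM with CX3CL1 and 176, 164 and 165 CPM with BSA, and fell with CCL26 by 0.24 on the log2 scale (SE 0.0517, adjusted p = 0.00129). The CCL26 libraries lay below every other library for Xbp1. Counts per gene hold spliced and unspliced Xbp1 together, so splicing was not measured. Atf4 was at 725, 711 and 691 CPM with CCL26, 1164, 711 and 691 CPM with CX3CL1 and 764, 748 and 765 CPM with BSA; the change of -0.09 (SE 0.0328, adjusted p = 0.0449) passed narrowly, and it missed the threshold in 6 of 18 alternatives. The CCL26 libraries of Atf4 lay below the BSA libraries. Since ATF4 is regulated largely in translation, the level of its message does not give that of the protein. Ddit3, the factor CHOP, was at 83.9, 77.7 and 76.4 CPM with CCL26, 297, 74.8 and 70.9 CPM with CX3CL1 and 73, 79.4 and 77.3 CPM with BSA, and the CCL26 and BSA ranges overlapped at 0.05 (adjusted p = 0.636). In CX3CL1 replicate 1 Ddit3 was at several times the level of every other library. Of the exon bases of Ddit3, 10.9% are shared with other annotated genes, among them Mars on the other strand, and the sources used here do not give whether reads were counted by strand. Psph, Manf, Hsp90b1, Pdia3 and Ppp1r15a also share exon bases with another gene in the table, and their counts could be affected by it.

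The ATF4 targets did not share a direction. Trib3 (ENSMUSG00000032715, chr2:152337422-152344032) was at 208, 197 and 229 CPM with CCL26, 229.9, 171 and 156 CPM with CX3CL1 and 162, 158 and 171 CPM with BSA, and rose by 0.37 (SE 0.0556, adjusted p = 2.15e-05) in CCL26 against BSA. Chac1, which degrades glutathione, was at 17.4, 15.4 and 19.2 CPM with CCL26, 8.54, 13.5 and 10.7 CPM with CX3CL1 and 12.6, 12.9 and 14.6 CPM with BSA, with a log2 fold change of 0.38 (SE 0.134, adjusted p = 0.0496). All CCL26 libraries of both genes lay above all BSA libraries, but the call of Chac1 was lost in 13 of 18 alternatives. Sesn2, a leucine-binding inhibitor of mTORC1 signalling, was at 157, 161 and 163 CPM with CCL26, 116, 173 and 176 CPM with CX3CL1 and 193, 169.5 and 194 CPM with BSA, and fell, with -0.21 (SE 0.0523, adjusted p = 0.00554), its CCL26 libraries all below BSA. Ppp1r15a, the phosphatase subunit GADD34 that reverses eIF2 phosphorylation, had -0.07 (adjusted p = 0.415).

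Of the 11 ATF4 targets of amino acid metabolism, 3 rose, 1 fell and 7 did not pass. Slc7a5, the light chain of the large neutral amino acid transporter LAT1, was at 325, 309.7 and 338 CPM with CCL26, 210.3, 279 and 309 CPM with CX3CL1 and 298, 286 and 288 CPM with BSA, with 0.16 (SE 0.0452, adjusted p = 0.013). Shmt2 was at 265, 265 and 278 CPM with CCL26, 348, 258 and 253 CPM with CX3CL1 and 239, 239 and 249 CPM with BSA; this mitochondrial serine hydroxymethyltransferase had 0.16 (SE 0.0424, adjusted p = 0.00944). Phgdh was at 186, 201 and 199.8 CPM with CCL26, 286, 173 and 172 CPM with CX3CL1 and 177, 169.7 and 182 CPM with BSA; this dehydrogenase opens serine synthesis and had 0.16 (SE 0.0482, adjusted p = 0.0243). For these transport and serine genes the CCL26 libraries lay above the BSA libraries without overlap. Nars, the cytosolic asparaginyl-tRNA synthetase, was at 700.1, 714 and 682 CPM with CCL26, 689.8, 746 and 746 CPM with CX3CL1 and 766, 739.9 and 747 CPM with BSA, and fell narrowly with -0.10 (SE 0.0326, adjusted p = 0.0298). Asns, asparagine synthetase, a well-known ATF4 target, was at 363, 363 and 336 CPM with CCL26, 460.4, 325 and 338 CPM with CX3CL1 and 352, 350.4 and 351 CPM with BSA. Its groups overlapped, and the log2 fold change was 0.02 (SE 0.0405, adjusted p = 0.842). The 6 others, Psph and Psat1 of serine synthesis, Mthfd2 of mitochondrial folate metabolism, the transporter heavy chain Slc3a2, and the synthetases Aars and Gars, ranged from -0.08 to 0.10 and did not pass. The median of all 15 ATF4 targets was 0.07, and 9 of 15 were positive, with 8 of 15 positive under upper quartile scaling.

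Setting the role groups side by side within each library removes the scaling of the library, which enters both. It does not remove the relation to expression level described above. Of the 13 chaperones 4 averaged over 1000 CPM, while 13 of the 15 ATF4 targets averaged between 100 and 1000 CPM. The part of expression level in this difference was not tested. The mean log2 CPM of the 13 chaperones was 8.08, 8.08 and 8.06 with CCL26, 8.56, 8.24 and 8.24 with CX3CL1, and 8.30, 8.28 and 8.32 with BSA. The mean of the 15 ATF4 targets was 7.85, 7.83 and 7.91 with CCL26, 8.01, 7.78 and 7.76 with CX3CL1, and 7.80, 7.79 and 7.83 with BSA. CX3CL1 replicate 1 was highest on both. Chaperones minus ATF4 targets came to 0.21 ± 0.058 with CCL26, 0.50 ± 0.047 with CX3CL1 and 0.50 ± 0.0032 with BSA (log2, SD, n = 3 each). Without CX3CL1 replicate 1 the CX3CL1 value was 0.47 ± 0.0099 (SD, n = 2). The 3 CCL26 libraries, from 0.15 to 0.25, lay below all of the other 6, which ran from 0.46 to 0.55. No test was made of this difference, since the genes were chosen with earlier results known.

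**Figure D4:**
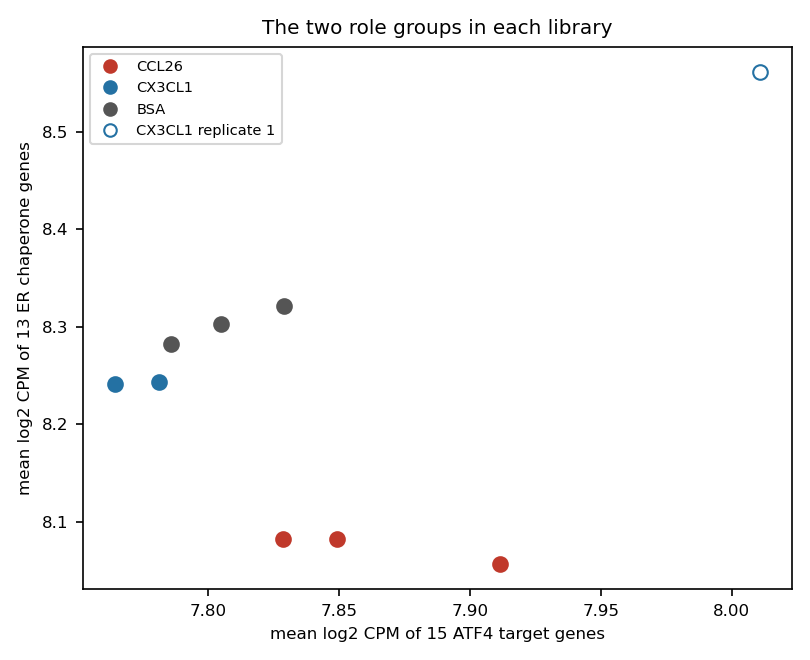
Mean log2 CPM of the 13 chaperone genes (vertical axis) against that of the 15 ATF4 targets (horizontal axis), 1 point per library, coloured by group, with CX3CL1 replicate 1 open. The axes do not start at 0; the CCL26 libraries lie from 8.06 to 8.08 on the vertical axis, below the BSA libraries at 8.28 to 8.32, and CX3CL1 replicate 1 lies alone at 8.56.

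CX3CL1 changed few of these genes relative to BSA. With all 9 libraries, edgeR called 0 of the 37 (0% of all tested genes), and DESeq2 also called 0. In edgeR's test 1 of the 37 had an unadjusted p under 0.05, against 405 of 12915 tested genes. Without CX3CL1 replicate 1, Hspa5 and Dnajb9 were lower and none was higher, against 0.31% of all tested genes lower and 0.0227% higher. The 2 remaining CX3CL1 libraries lay below the BSA libraries for both genes. Hspa5 had -0.24 (SE 0.0334, adjusted p = 0.00154) and Dnajb9 had -0.30 (SE 0.0672, adjusted p = 0.0481). The call of Hspa5 was lost when either remaining CX3CL1 library was left out, and that of Dnajb9 in 8 of 18 alternatives. The other 35 genes had log2 fold changes from -0.22 (Ppp1r15a) to 0.10 (Dnajc3), and the medians were -0.05 over the chaperones, -0.02 over the ATF4 targets and -0.0015 over all tested genes. The medians with all 9 libraries were -0.01 over the chaperones, 0.06 over the ATF4 targets and -0.0051 over all tested genes, so that of the ATF4 targets turned with CX3CL1 replicate 1, as did the signs of 22 of the 37 genes. Ern1 had 0.01 (SE 0.0628), Xbp1 0.0040 (SE 0.0575) and Asns -0.08 (SE 0.0454).

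The chemokines were also set against each other directly. With all 9 libraries, 0 of the 37 passed edgeR's test (0.41% of all tested genes did), and DESeq2 called 0. In edgeR's test 8 of the 37 had an unadjusted p under 0.05, against 1484 of 12915 tested genes. Without CX3CL1 replicate 1, 11 were lower and 5 higher with CCL26 than with CX3CL1, against 4.64% of all tested genes lower and 5.47% higher. The lower genes were 8 chaperones, Edem1, Eif2ak3 and Xbp1. Among the chaperones the fall was from -0.28 in Calr (adjusted p = 1.33e-06) to -0.13 in Hspa5 (adjusted p = 0.00991), and Dnajc3, a co-chaperone that also restrains PERK, was lower in this comparison (-0.17, adjusted p = 0.0432), a call lost in 9 of 18 alternatives. Dnajc3 was at 174, 183 and 163 CPM with CCL26, 151, 195 and 196 CPM with CX3CL1 and 181, 182 and 183 CPM with BSA. Pdia4 narrowly missed the threshold at -0.17 (adjusted p = 0.055). The higher genes were Ern1 (0.48, adjusted p = 4.57e-06), Chac1 (0.52, 0.0263), Trib3 (0.37, 0.000195), Phgdh (0.19, 0.0247) and Sel1l (0.18, 0.00976). The median was -0.17 over the chaperones and 0.09 over the ATF4 targets, against 0.0032 over all tested genes. The median with all 9 was -0.27 over the chaperones, -0.08 over the ATF4 targets and 0.02 over all tested genes. The direction of the ATF4 target median in this comparison thus depended on CX3CL1 replicate 1, with 10 of 15 genes negative with it and 4 of 15 without it, and 14 of the 37 genes differed in sign between the fits. This comparison shares its CCL26 libraries with CCL26 against BSA and its CX3CL1 libraries with CX3CL1 against BSA, so the 3 are not independent.

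**Figure D5:**
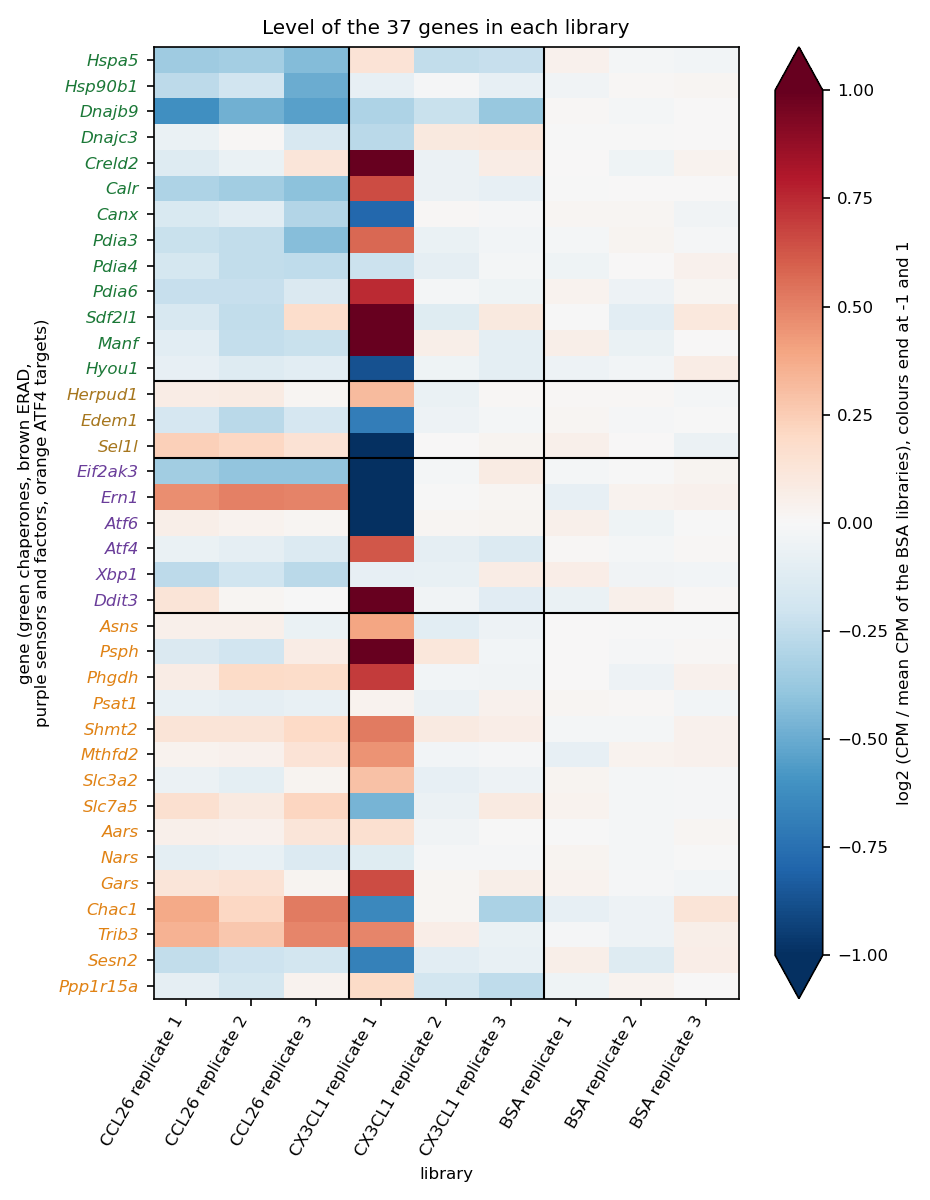
Log2 of the CPM in each library (columns) over the mean CPM of the BSA libraries, for the 37 genes (rows, in role order, names coloured by role); colours end at -1 and 1. The CCL26 columns are blue for most chaperones and red for Ern1, Trib3 and Chac1, and CX3CL1 replicate 1 is the strongest column, with Ddit3 above and Eif2ak3 below the colour range.

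Other genes of the same pathways, from longer lists, were followed in the same fits. None of them passed with all 9 libraries in any comparison. Without CX3CL1 replicate 1, of 45 further genes of ER folding, export and degradation, 7 were lower (15.6%) and 2 higher (4.44%) with CCL26 than with BSA, against 9.26% of all tested genes lower and 9.74% higher, with a median of -0.09. The smallest p was that of P4hb, the isomerase PDI, at 853 ± 16.1 CPM with CCL26 and 1015 ± 10.4 CPM with BSA (SD, n = 3 each; log2 fold change -0.25, adjusted p = 1.16e-06), and Crebrf (-0.28), Edem3 (-0.24) and Erp29 (-0.18) fell too, while Atf6b, the relative of ATF6, rose by 0.23. Of 32 further genes of the integrated stress response and of amino acid metabolism, 12 were higher (37.5%) and 2 lower (6.25%), with a median of 0.08. Eif2ak2, the RNA-activated kinase PKR, rose by 0.57, the cationic amino acid transporter Slc7a1 by 0.36, the transcription factor Cebpb by 0.34 and Pck2, the mitochondrial form of the gluconeogenic enzyme, by 0.34. Slc38a2, a neutral amino acid transporter induced by amino acid shortage, went the other way, at 1546 ± 60.8 CPM with CCL26 and 2352 ± 25.9 CPM with BSA (SD, n = 3 each; log2 fold change -0.61, adjusted p = 4.14e-14). Of 17 further cytosolic tRNA synthetases, 6 were higher (35.3%), from 0.16 (Iars) to 0.28 (Lars), and 1 (5.88%), Kars, was lower (-0.19), with a median of 0.13.

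In CX3CL1 against BSA, without CX3CL1 replicate 1, 0 of the 45 ER genes and 0 of the 17 synthetases passed. Of the 32 stress response genes 2 were lower (6.25%, against 0.31% of all tested genes), Atf3, a stress-induced transcription factor (-0.29, adjusted p = 0.000565), and Slc38a2 (-0.19, adjusted p = 0.0133). In CCL26 against CX3CL1, 3 ER genes were lower (6.67%, near the 4.64% of all tested genes) and 0 higher. In the same comparison 9 stress response genes were higher (28.1%, against 5.47% of all tested genes) and 1 lower, and 7 synthetases were higher (41.2%) and 0 lower. Slc38a2 was again the lower one (-0.42), and P4hb led the ER genes (-0.19).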

How the data were processed

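RNA-seq of 9 libraries was used, 3 each with CCL26, CX3CL1 or BSA. Raw read counts per gene were deposited by the authors as 1 table and carry no normalization. STAR, featureCounts and MultiQC are named per the submitters' processing notes, without versions; the sources used here do not give strand use. Columns were matched to libraries by the labels. No column of values was left unmatched. The deposited table has 0 entries without a gene. Symbols are those of the table, and positions and exon lengths those of GENCODE M21 on GRCm38. Promoter windows are RefSeq's on GRCm38.p6.

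Genes were filtered with filterByExpr by group (12915 kept with 9 libraries, 13245 with 8), scaled by TMM and tested by quasi-likelihood F tests in edgeR 4.0.16 and limma 3.58.1 under R 4.3.3, with group as the only term and Benjamini-Hochberg adjustment over all tested genes at 0.05. CPM use TMM-scaled library sizes, and positive log2 fold changes are higher in the group named first in a comparison. Chi-square tests found no pair of libraries within sampling noise. The 37 genes, the role groups and the lists of other genes were chosen with earlier results of these data known. Values per library are given for genes past the threshold in any comparison and for Hspa5, Xbp1, Atf4, Ddit3, Asns, Trib3 and Chac1, and of each list of other pathway genes up to 5 with the smallest p are named. Iars and Kars were named after their values were seen.

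Alternatives were other tests (DESeq2 1.42.0, limma-voom), other scaling (DESeq2 size factors, upper quartile), other filters (none, or 5 CPM in 3 libraries), a block for the replicate number, fits on the groups compared, a threshold of 0.1 and leaving out each library. Limma-voom with library quality weights was chosen after seeing the data. Simulated counts with known changes were used to test the scripts. Plots are from matplotlib 3.10.9 under Python 3.11.15.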

Additional observations from a re-analysis of the deposited data

How the results depend on the processing

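With all 9 libraries, the counts of the 37 genes called, 0 in every comparison, depended on CX3CL1 replicate 1. Leaving out each library in turn gave 0 to 7 higher and 0 to 14 lower in CCL26 against BSA, 0 to 2 lower in CX3CL1 against BSA, and 0 to 5 higher and 0 to 11 lower in CCL26 against CX3CL1, and the upper end of each range came without CX3CL1 replicate 1. For CCL26 against BSA, DESeq2 and a threshold of 0.1 each called 1 lower, the fit on the 6 libraries compared 6 higher and 15 lower, and limma-voom with quality weights 5 higher and 12 lower. Quality weights called 2 lower in CX3CL1 against BSA, and 4 higher and 10 lower in CCL26 against CX3CL1. Shares of all tested genes called under the alternatives of this section are not given. The counts therefore describe only how the calls of the 37 vary. In CCL26 against CX3CL1 with all 9 libraries, 14 of the 37 genes had the other sign without CX3CL1 replicate 1, and 3 of them then passed. The log2 fold change of Canx was 0.03, against -0.15 with quality weights and -0.18 to 0.17 over the libraries left out, that of Edem1 0.02, against -0.17 and -0.17 to 0.14, and that of Phgdh -0.10, against -0.23 to 0.19 over the libraries left out. The end with the other sign came without CX3CL1 replicate 1. The cause was not tested.

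Without CX3CL1 replicate 1, CCL26 against BSA gave 3 to 7 higher when a further library was left out, the lowest without BSA replicate 2. The calls of Hspa5, Hsp90b1, Dnajb9, Calr, Canx, Pdia3, Pdia4, Pdia6, Edem1, Sel1l, Eif2ak3, Ern1, Xbp1, Trib3 and Sesn2 held in all 18 alternatives, while Nars and Phgdh each lost theirs in 4, Slc7a5 in 2 and Shmt2 in 1. The number lower in CX3CL1 against BSA was 1 with no filter, 4 with quality weights, 4 on the groups compared, and 0 to 4 without a further library, with 0 when CX3CL1 replicate 2 or 3 was left out. CCL26 against CX3CL1 gave 2 to 6 higher and 4 to 11 lower, with 2 or 3 higher and 4 or 5 lower when CX3CL1 replicate 2 or 3 was left out, and 3 higher without CCL26 replicate 1. With all 9 libraries, the difference between role groups in CX3CL1 against BSA was 0.0014, against -0.0335 with Ddit3 among the ATF4 targets, and -0.0256 without CX3CL1 replicate 1.

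Same-numbered libraries did not deviate together (correlations of -0.08 to 0.05 with 9 libraries and -0.01 to 0.03 with 8). With 2 or 3 libraries a group, these correlations cannot tell whether same-numbered libraries share an animal or culture, and the labels state no pairing. With the replicate block, 0 genes were called with 9 libraries, and with 8 the counts were 6 higher and 14 lower in CCL26 against BSA, 1 lower in CX3CL1 against BSA, and 5 higher and 10 lower in CCL26 against CX3CL1. With 2 or 3 libraries a group, the standard errors, from 0.0298 (Hspa5) to 0.134 (Chac1) in CCL26 against BSA with 8 libraries, limit which changes could be detected.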
